A study of Mus musculus with 208 samples.

Results

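Described here are 7 genes for subunits of the γ-aminobutyric acid type A (GABA-A) receptor: Gabra2, Gabra3, Gabra4 and Gabra5 (α subunits), Gabrb1 and Gabrb2 (β subunits) and Gabrd (the δ subunit). They were taken by symbol from raw count and CPM (counts scaled by library total) tables of 4 brain regions, where all 7 were found among 46403 genes. RNA was measured by RNA-seq of nuclei sorted for the neuronal protein NeuN, with 1 library for each animal and region, 107 of them from females.

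All animals were wild-type C57BL/6NTac mice, given LPS or saline as adults, at 8 to 12 weeks of age by the study's methods. MOR mice had been exposed to morphine before birth, through an osmotic minipump in the dam (10 mg/kg per day), and by subcutaneous injections (10 mg/kg) in the first 2 postnatal weeks, whereas SAL mice received saline in both periods. Pups of both exposures were raised by drug-naive surrogate dams. As adults they received lipopolysaccharide (LPS, a bacterial cell wall component that sets off an inflammatory response) or saline, and tissue was taken 2 h later. With the perinatal exposure named first, this gave SAL–SAL and MOR–SAL without LPS, and SAL–LPS and MOR–LPS with it. The hypothalamus had 11, 14, 12 and 14 libraries in that order, the hippocampus 13, 12, 14 and 16, the prefrontal cortex (PFC) 10, 12, 10 and 16, and the striatum 13, 8, 15 and 18. A library is named by a pair of numbers, such as 10-1, and the first is read here as the litter and the second as the animal, which the labels do not spell out. Read in this way, 71 animals came from 18 litters, 8 exposed to saline and 10 to morphine, so that litter and exposure cannot be told apart. The study's methods count more distinct litters than this reading gives, and the values given by litter below rest on it. Animals of 1 litter share a dam, and the 4 regions share animals.

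A GABA-A receptor is a chloride channel built from a ring of subunits, and GABA binds between an α and a β subunit to open it. Receptors that also hold a γ subunit gather mostly at synapses, whereas those with δ lie outside synapses and carry a steady, tonic inhibition. In the forebrain δ pairs mainly with α4, above all in thalamic relay neurons, striatal spiny projection neurons and granule cells of the dentate gyrus, and α5 is a further extrasynaptic form that is best known from hippocampal pyramidal cells.

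The members lie on 5 chromosomes of mm10. Gabra2 (chr5:70957597-71095849, minus strand), Gabra4 (chr5:71569749-71658308, minus strand) and Gabrb1 (chr5:71658113-72149037, plus strand) are neighbours on chromosome 5, where Gabra4 and Gabrb1 stand head to head and share 46 bases of exon. Gabra3 lies at chrX:72432681-72656848 on the minus strand, Gabra5 at chr7:57407672-57510059 on the minus strand, Gabrb2 at chr11:42419757-42629028 on the plus strand and Gabrd at chr4:155384980-155398112 on the minus strand. Their spans run from 13133 bases (Gabrd) to 490925 bases (Gabrb1). Gabra5 is the member most covered by other genes: 90.5% of its span lies under other genes, and 148 bases of its exons overlap the antisense gene Gm9962. How strand was used in counting is not given in the sources used here, so reads from these overlaps cannot be assigned with certainty.

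Sequences upstream of the chromosome 5 neighbours are shown because Gabra4 is the member whose hypothalamic interaction of exposure and LPS was called below, with the limits given there, and Gabra2 and Gabrb1 flank it. They are the bases before a RefSeq start of each gene on GRCm38.p6 (250 for Gabra2 and Gabrb1, 195 for Gabra4, whose window leaves out the 55 bases next to the start), written 5′ to 3′ on the strand of the gene. Capitals mark a match, on either strand, to 1 of 5 motifs searched: the GC box GGGCGG, the CCAAT box CCAAT, the TATA box TATAAA, the cAMP response element TGACGTCA and the EGR site GCGTGGGCG.
Gabra2, chr5:71095850-71096099, minus strand: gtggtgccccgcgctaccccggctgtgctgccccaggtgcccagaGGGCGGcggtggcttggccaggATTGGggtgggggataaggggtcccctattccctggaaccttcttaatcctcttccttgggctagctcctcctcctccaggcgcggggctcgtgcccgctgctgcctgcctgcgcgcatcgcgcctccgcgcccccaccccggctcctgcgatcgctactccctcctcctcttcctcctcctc
Gabra4, chr5:71658364-71658558, minus strand: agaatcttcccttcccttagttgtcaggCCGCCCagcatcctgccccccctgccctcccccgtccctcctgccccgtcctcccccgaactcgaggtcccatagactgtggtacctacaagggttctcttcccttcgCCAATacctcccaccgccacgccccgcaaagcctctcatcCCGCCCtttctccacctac
Gabrb1, chr5:71699682-71699931, plus strand: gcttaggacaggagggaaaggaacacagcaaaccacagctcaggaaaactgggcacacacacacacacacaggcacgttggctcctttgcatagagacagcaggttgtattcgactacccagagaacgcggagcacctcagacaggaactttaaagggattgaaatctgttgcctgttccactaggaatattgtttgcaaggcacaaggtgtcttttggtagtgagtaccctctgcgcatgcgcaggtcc
The Gabra4 sequence held 2 GC boxes on the reverse strand and a CCAAT box. The Gabra2 sequence held a GC box and a reverse CCAAT box, and the Gabrb1 sequence held none of the 5. The Gabrb1 start used here, at base 71699932, lies within the gene's span and not at the end next to Gabra4. GC content was 70% for Gabra2, 63.6% for Gabra4 and 50.8% for Gabrb1. Such matches were common: of 32851 windows of 250 bases upstream of mouse genes, 32.7% held the GC box, 33.8% the CCAAT box, 12.4% the TATA box, 1.55% the cAMP response element and 0.536% the EGR site. In windows of 195 bases these shares were 23.8%, 27.6%, 8.95%, 0.77% and 0.314%.

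Hypothalamic libraries held between 7673 and 35077048 counts, hippocampal ones between 227025 and 24071488, PFC ones between 3056648 and 21988203, and striatal ones between 5954700 and 92945090. Libraries below 0.5 of the median total of their region, called low-depth here, numbered 3, 2, 3 and 0. The shallowest, hypothalamic SAL–LPS 1-4, had 7673 counts and 0 for every member, which allows up to 391 CPM (3 counts, counting error only). The labels were checked against marker genes. In the PFC libraries the summed list of cortical and hippocampal excitatory neuron markers had a median of 383 normalised CPM, against 351 in the hippocampus and 120 in the striatum. The summed list of striatal spiny neuron markers had a PFC median of 3419, against 3982 in the striatum and 916 in the hippocampus. The libraries labelled PFC thus carried markers of both tissues. In the hypothalamus the summed list of hypothalamic markers had a median of 64.6 normalised CPM with a range of 0 to 318. The labels give no sequencing batch, so none could be taken into account.

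The first question was how much RNA of each subunit the neuronal nuclei of each region held. Levels are normalised CPM, which are CPM corrected for composition so that libraries of all regions can be compared, and are given as mean ± SD with the lowest, median and highest library. Gabrb1, which encodes the β1 subunit, had a level of 222 ± 67.5 in the hypothalamus (n = 51, 0, 224 and 379), 662 ± 211 in the hippocampus (n = 55, 270, 645 and 1089), 499 ± 169 in the PFC (n = 48, 194, 458 and 879) and 751 ± 310 in the striatum (n = 54, 189, 730 and 1681). Gabrb2, the β2 subunit of the most common synaptic receptors, followed the same order of regions, with 90.4 ± 34.2 (0, 90.0 and 175), 254 ± 70.3 (88.7, 255 and 405), 181 ± 63.9 (69.0, 165 and 303) and 363 ± 107 (188, 362 and 662). The hypothalamus was thus lowest and the striatum highest for both, with overlapping ranges.

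Among the α subunits, Gabra2, which encodes an α subunit of synaptic receptors, had medians of 107, 162, 152 and 197 in the same order of regions. Gabra4, the α partner of δ, varied more between regions, with 75.8 ± 84.4 in the hypothalamus (0, 49.0 and 474), 174 ± 40.4 in the hippocampus (70.5, 167 and 290), 115 ± 43.2 in the PFC (47.1, 108 and 229) and 288 ± 111 in the striatum (39.2, 270 and 600). The SD of Gabra4 exceeded its mean in the hypothalamus alone, where a few libraries stood far above the rest. Gabra3 had medians of 61.3, 31.0, 44.9 and 56.8 in the same order of regions and was lowest in the hippocampus.

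Gabra5 ran opposite to most members. It was highest in the hypothalamus, at 29.5 ± 23.2 (0, 24.0 and 152), and fell to 11.8 ± 6.28 in the hippocampus (0.413, 11.1 and 27.1), 5.91 ± 5.69 in the PFC (0, 5.43 and 32.7) and 5.93 ± 3.11 in the striatum (0.330, 5.46 and 13.8). Gabrd was lowest in the hypothalamus, at 28.2 ± 44.8 (0, 9.20 and 219), against 54.4 ± 29.1 in the hippocampus (0, 49.0 and 148), 101 ± 51.7 in the PFC (18.8, 89.5 and 268) and 96.2 ± 40.6 in the striatum (9.79, 92.8 and 177). The hypothalamic mean of Gabrd lay far above its median because a minority of libraries carried most of it.

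**Figure D1:**
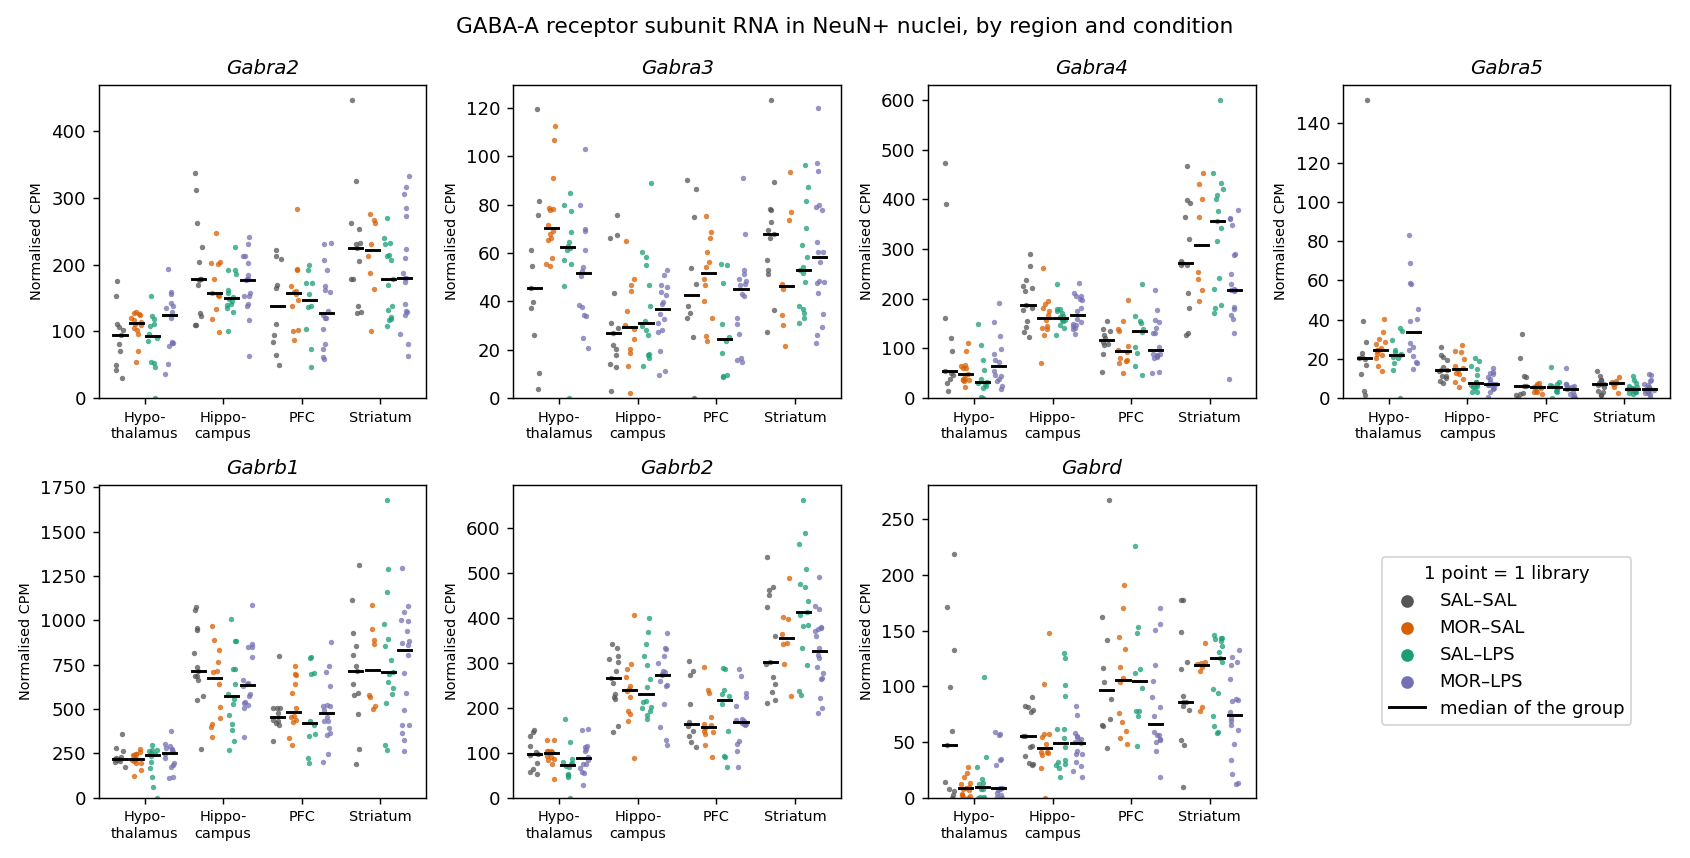
Normalised CPM (vertical axis, linear, from 0) of the 7 subunit genes in each library, grouped by region and, within a region, by condition in colour; 1 point is 1 library and the black bar is the median of the group. Gabrb1, Gabrb2 and Gabra4 sit lowest in the hypothalamus and highest in the striatum, Gabra5 sits highest in the hypothalamus, and hypothalamic Gabrd is near 0 in most libraries but reaches 219.

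To compare levels between genes, medians over all conditions were divided by the length of the exons in kilobases (kb). In the hypothalamus Gabrb1 (16.2 normalised CPM per kb), Gabra3 (15.6), Gabrb2 (14.2) and Gabra2 (14.0) were close together, followed by Gabra5 (8.07), Gabra4 (8.06) and Gabrd (3.20). The hippocampus ran from Gabrb1 (46.6) and Gabrb2 (40.1) through Gabra4 (27.5), Gabra2 (21.2) and Gabrd (17.0) to Gabra3 (7.91) and Gabra5 (3.73). Gabrd stood second in the PFC (31.1 per kb, after Gabrb1 at 33.1) and after Gabrb2 (56.9), Gabrb1 (52.7) and Gabra4 (44.4) in the striatum (32.3), and Gabra5 was last in both at 1.83. Nuclear RNA includes unspliced transcripts, and on the scale of the whole gene span Gabrd came first in the hippocampus, PFC and striatum (3.73, 6.81 and 7.07 normalised CPM per kb of span). The order also varied between conditions: per kb of exon, the hypothalamic Gabrd median was 16.4 in SAL–SAL, the highest of the 7, but between 2.92 and 3.47 in the other conditions, the lowest of the 7, and in the PFC it was highest in every condition but MOR–LPS (22.9). The order of the genes therefore depended on the length used and on the condition.

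Regions were compared in 1 edgeR quasi-likelihood fit over all libraries and 19478 genes, adjusted for condition and sex. Differences are log2FC, the log2 fold change of the first region over the second, and adjusted p-values are Benjamini-Hochberg over all genes. Against the hippocampus, 7 of 7 members differed in the hypothalamus, where 65.5% of all genes did. Against the PFC 7 of 7 differed (67.9% of genes) and against the striatum 6 of 7 (65.1%). For the hippocampus against PFC the count was 6 of 7 (46.3%), for the hippocampus against striatum 5 of 7 (45.4%) and for the PFC against striatum 5 of 7 (52.7%). Between 45.4 and 67.9% of all genes differed in these pairs, so the counts alone are not a result about the receptor.

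By edgeR, Gabrb1 was lower in the hypothalamus than in the hippocampus by a log2FC of −1.56 (SE 0.11, adjusted p = 1.82e-31) and Gabrb2 by −1.47 (SE 0.10, adjusted p = 1.42e-33), and against the striatum they differed by −1.74 and −1.98 (adjusted p = 1.13e-35 and 1.51e-47). Gabra4 was lower in the hypothalamus than in the striatum by −2.01 (adjusted p = 3.56e-30) and lower in the PFC than in the striatum by −1.34 (adjusted p = 1.05e-15), whereas its difference between hypothalamus and PFC was −0.66 and turned to 0.19 with SAL–SAL libraries alone (adjusted p = 1.38e-05 and 0.708). Gabra2 differed less, at −0.77 against the hippocampus and −0.99 against the striatum (adjusted p = 8.27e-11 and 7.95e-16), and its hippocampal and striatal levels were not told apart (−0.23, adjusted p = 0.0713).

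Gabra5 was higher in the hypothalamus than in the hippocampus (log2FC 1.28, SE 0.20, edgeR adjusted p = 4.05e-09), the PFC (2.24, adjusted p = 3.60e-19) and the striatum (2.22, adjusted p = 2.77e-19). It was also higher in the hippocampus than in the PFC (0.96, adjusted p = 3.60e-05), whereas the PFC and striatum were not told apart (−0.02, adjusted p = 0.961). Gabra3 was higher in the hypothalamus than in the hippocampus (0.81, adjusted p = 9.70e-07) and the PFC (0.54, adjusted p = 0.00176) but not told apart from the striatum (0.03, adjusted p = 0.883). Neither Gabra5 nor Gabra3 passed against the hippocampus with SAL–SAL libraries alone (edgeR adjusted p = 0.153 and 0.246). Gabrd was lower in the hypothalamus than in the hippocampus (−1.24, SE 0.22, adjusted p = 2.98e-07), the PFC (−2.16, adjusted p = 4.26e-16) and the striatum (−2.08, adjusted p = 1.39e-15), and its PFC and striatal levels were not told apart (0.07, adjusted p = 0.816). With SAL–SAL libraries alone, the Gabrd difference from the hippocampus turned to 0.19 (SE 0.48, edgeR adjusted p = 0.789), and those from the PFC and striatum were −0.84 and −0.51 (adjusted p = 0.189 and 0.447). In these bulk libraries fewer cells of a type and less RNA per cell cannot be told apart.

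Region differences moved with the length and overlap of genes. Across 15029 protein-coding genes, the Spearman correlation between gene span and the log2FC was −0.44 for the hypothalamus against hippocampus, −0.34 against PFC and −0.57 against striatum, given as a description because genes share these libraries. Genes with spans of 200 to 500 kb (732 genes) had a median log2FC of −1.71 against the hippocampus, those of 100 to 200 kb (1349 genes) −0.82, and those of 30 to 100 kb (4406 genes) −0.17. Gabrb1, Gabrb2 and Gabra2 lay within the quartiles of genes of like span against the hippocampus, Gabra3 lay above them, and Gabra4 and Gabrd lay below them. Genes with 80 to 95% of their span under other genes (132 genes), as for Gabra5, had medians of 1.24, 1.10 and 1.00 against the hippocampus, PFC and striatum. The summed list of neuronal markers also differed, with a median of 1865 normalised CPM in the hypothalamus and medians of 5200, 6154 and 5511 in the other regions (hippocampus, PFC, striatum). A summed list of thalamus markers, named below, had a median of 305 in the hypothalamus and of 1683, 1881 and 5238 in the other regions, in the same order. The part of span, overlap, neuronal markers and thalamus markers in the members' region differences was not tested.

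The second question was whether perinatal morphine, adult LPS or their combination went with different subunit levels. Each region was fitted alone with edgeR, with condition and sex as terms, and 5 condition contrasts were read: MOR–SAL against SAL–SAL, MOR–LPS against SAL–LPS, SAL–LPS against SAL–SAL, MOR–LPS against MOR–SAL, and the interaction, which is the LPS response of MOR animals minus that of SAL animals. Contrasts that share a condition share its libraries. In the hypothalamus 1 of 7 members, Gabrd, passed for MOR–SAL against SAL–SAL (1.44% of all genes) and 1 of 7, Gabra4, for the interaction (3.8% of genes). None of the 7 passed for MOR–LPS against SAL–LPS (1.03%), SAL–LPS against SAL–SAL (0.246%) or MOR–LPS against MOR–SAL (6.27%), where 1, 2 and 3 members had an unadjusted p under 0.05. DESeq2 gave the same counts of members in all 5 contrasts.

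Hypothalamic Gabrd was spread widely within SAL–SAL. Its 11 libraries had a lowest, median and highest level of 0, 47.2 and 219 normalised CPM (mean 69.1 ± 76.3), against 0, 8.38 and 28.1 in the 14 MOR–SAL libraries (9.79 ± 8.58). SAL–LPS had 0, 9.97 and 108 (19.3 ± 30.3, n = 12) and MOR–LPS 0, 8.95 and 59.5 (22.2 ± 22.5, n = 14). All 14 MOR–SAL libraries lay below the SAL–SAL median, yet the ranges of the 4 groups overlapped, since SAL–SAL itself reached down to 0.

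The SAL–SAL group holds the 3 highest values of Gabrd, and the highest SAL–LPS library had 108 normalised CPM. In order within SAL–SAL, library 10-1 had 219 normalised CPM, 4-3 had 171, 10-3 had 132, 5-3 had 99.7, 3-2 had 59.7, 11-1 had 47.2, 4-1 had 14.3, 9-4 had 8.27, 5-1 had 6.05, 1-3 had 2.30 and 1-1 had 0. Of the 3 highest, 2 came from litter 10 and the other, 4-3, was a low-depth library in which 45 counts of Gabrd were read. The libraries of MOR–SAL showed no such tail.

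MOR–SAL was lower than SAL–SAL for Gabrd by a log2FC of −2.80 (SE 0.67, 95% interval −4.12 to −1.48, edgeR adjusted p = 0.0202). For MOR–LPS against SAL–LPS the Gabrd difference was 0.27 (adjusted p = 0.962), for SAL–LPS against SAL–SAL −1.67 (SE 0.70, adjusted p = 0.231) and for MOR–LPS against MOR–SAL 1.40 (SE 0.64, adjusted p = 0.187), all by edgeR. Its interaction was 3.07 (SE 0.95, adjusted p = 0.0508), just outside the threshold.

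Gabra4 showed the same kind of tail. SAL–SAL had a lowest, median and highest level of 13.7, 54.2 and 474 normalised CPM (134 ± 155, n = 11), MOR–SAL 21.5, 47.6 and 110 (54.0 ± 24.4, n = 14), SAL–LPS 0, 31.6 and 149 (47.4 ± 43.9, n = 12) and MOR–LPS 18.6, 64.2 and 191 (76.0 ± 51.1, n = 14). Within SAL–SAL the 2 highest libraries were 10-1 (474) and 10-3 (391), followed by 5-3 (162), 3-2 (120) and 11-1 (94.2). Unlike for Gabrd, library 4-3 was not high (30.4, from 8 counts), and the medians of SAL–SAL and MOR–SAL were close, with 8 of 14 MOR–SAL libraries below the SAL–SAL median.

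The Gabra4 interaction was 1.99 on the log2 scale (SE 0.55, 95% interval 0.92 to 3.06, edgeR adjusted p = 0.0247). It combined a lower level in SAL–LPS than in SAL–SAL (−1.42, SE 0.41, adjusted p = 0.0762) with a value of 0.57 for MOR–LPS against MOR–SAL (adjusted p = 0.403), neither of which passed alone. MOR–SAL against SAL–SAL gave −1.28 (SE 0.38, adjusted p = 0.0612) and MOR–LPS against SAL–LPS 0.71 (adjusted p = 0.446).

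**Figure D2:**
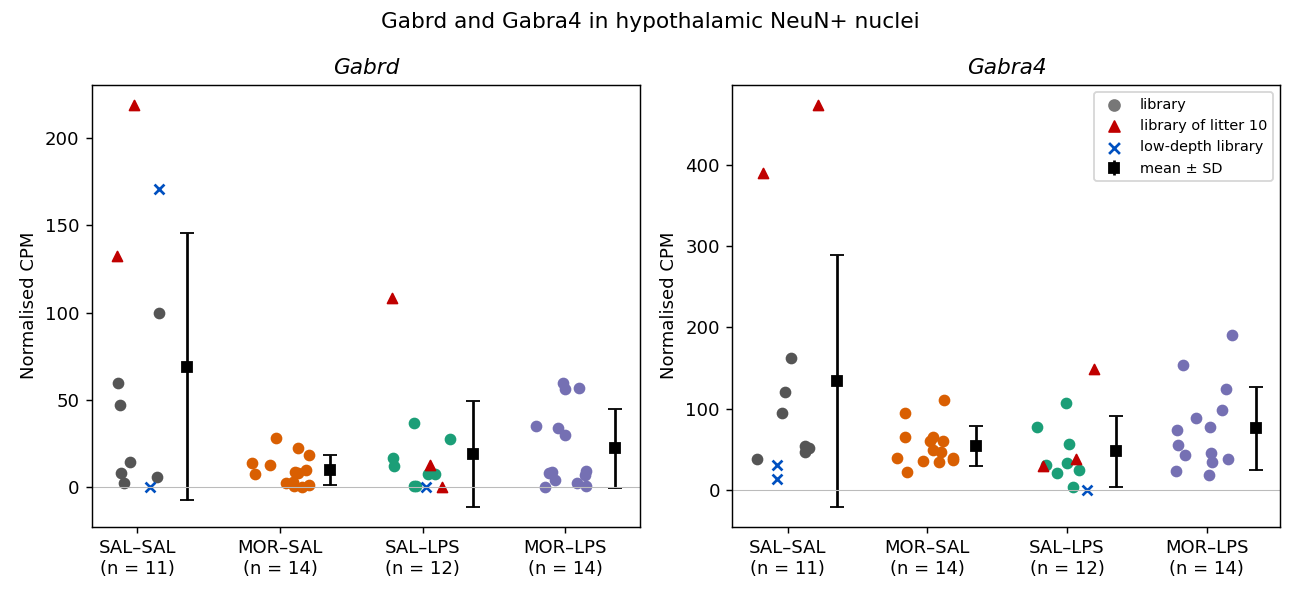
Normalised CPM (vertical axis, linear) of Gabrd (left) and Gabra4 (right) in hypothalamic libraries by condition, with n under each name; triangles are libraries of litter 10, crosses are low-depth libraries, and squares with bars are the mean ± SD. The highest SAL–SAL values of Gabra4, 474 and 391, are both from litter 10, and the SAL–SAL mean of Gabrd (69.1) stands above its other groups.

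Markers of the thalamus, which borders the hypothalamus, moved with both genes. The list holds Prkcd, Tcf7l2, Lef1, Rora, Ramp3, Synpo2, Plekhg1 and Ntng1, and its summed level had a lowest, median and highest value of 149, 604 and 5451 normalised CPM in SAL–SAL, 156, 289 and 1168 in MOR–SAL, 46.7, 297 and 834 in SAL–LPS, and 122, 299 and 782 in MOR–LPS. In SAL–SAL it was 5451 in library 10-1, 3812 in 10-3, 2107 in 5-3, 1463 in 3-2 and 1114 in 11-1, the same 5 libraries that led Gabra4. By edgeR the log2FC of all 8 markers was negative for MOR–SAL against SAL–SAL (median −2.13), and 6 of 8 passed. For SAL–LPS against SAL–SAL all 8 values were negative (median −2.19), and 3 of 8 passed. The interaction was positive for all 8 (median 1.70), and 4 of 8 passed.

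Within conditions, over 48 hypothalamic libraries without the low-depth ones, the thalamus list correlated with Gabra4 at r = 0.69 and with Gabrd at r = 0.56, and with Gabra3, Gabra5 and Gabra2 at −0.57, −0.50 and −0.37. These are descriptions, since the libraries share litters and the values share their total. With the log2 of the list's summed CPM as a covariate, an alternative chosen after seeing the data, the Gabrd difference between MOR–SAL and SAL–SAL was −0.70 (SE 0.71, edgeR adjusted p = 0.782) and the Gabra4 interaction 0.45 (adjusted p = 0.766). Other lists also varied: the astrocyte list had medians of 15.4, 20.0, 24.6 and 126 normalised CPM over the 4 conditions in the order above, and the hypothalamic list had medians of 41.4, 90.7, 56.7 and 36.05. The list of endothelium and choroid plexus was highest in SAL–SAL, as was Gabrd, with a median of 26.6 (0 to 233) against 4.61 (0.667 to 12.2), 4.98 (0 to 10.4) and 10.5 (0.707 to 30.5) in the other conditions. The part of astrocyte, hypothalamic, endothelial and choroid plexus markers in the results was not tested.

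**Figure D3:**
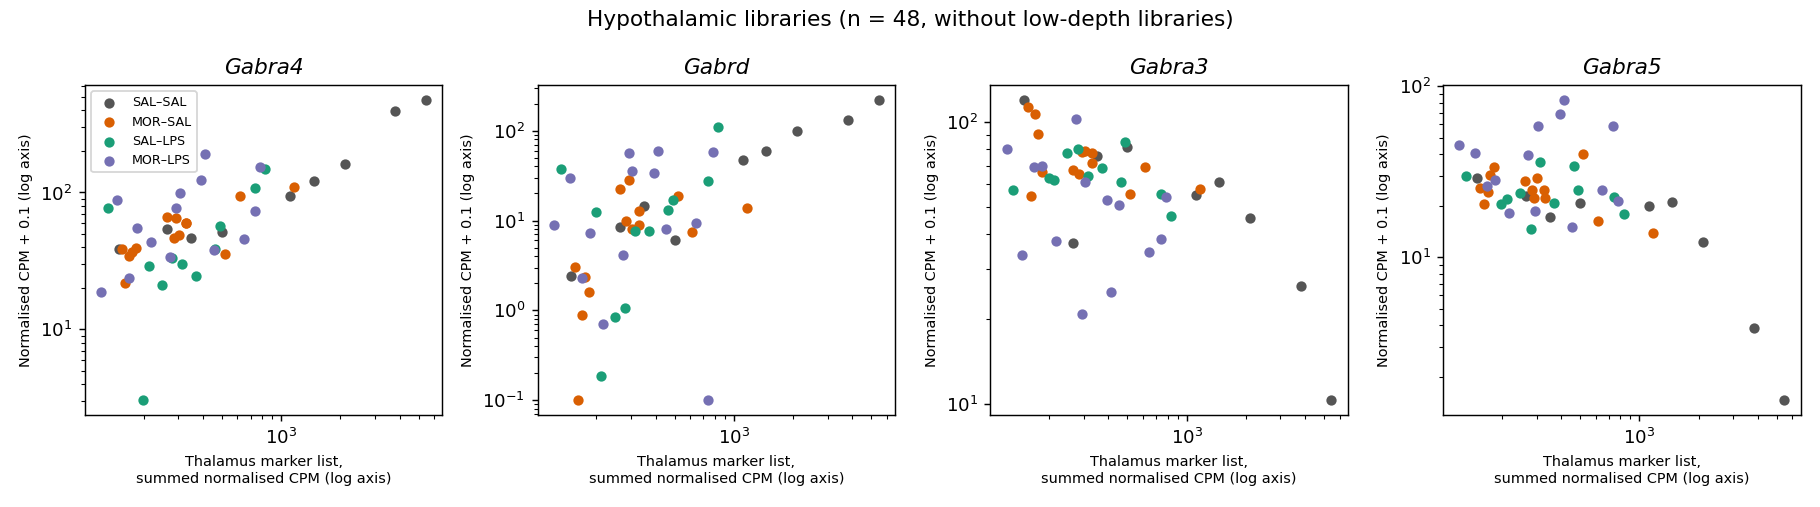
Each point is a hypothalamic library (n = 48, without low-depth libraries), with the summed normalised CPM of the thalamus list on the horizontal log axis and normalised CPM + 0.1 of a member on the vertical log axis, coloured by condition. Gabrd and Gabra4 are high where the thalamus list is high, whereas Gabra3 and Gabra5 are low there.

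Single litters decided part of these calls. Without litter 10 the Gabrd difference between MOR–SAL and SAL–SAL was −2.16 (edgeR adjusted p = 0.130), and over 17 litters left out in turn it ranged from −3.09 to −2.16 and passed in 16. The Gabra4 interaction without litter 10 was 1.12 (adjusted p = 0.301), and it passed in 14 of 17, the others being litters 3 and 14. Without litter 10 the Gabra4 values that had not passed were −0.34 for MOR–SAL against SAL–SAL (adjusted p = 0.773) and −0.67 for SAL–LPS against SAL–SAL (adjusted p = 0.601). With litter as a block, which pairs litter mates given LPS or saline, the Gabra4 interaction was 1.30 (SE 0.45, adjusted p = 0.303) and that of Gabrd 2.41 (adjusted p = 0.465). Both stayed positive, and neither passed.

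**Figure D4:**
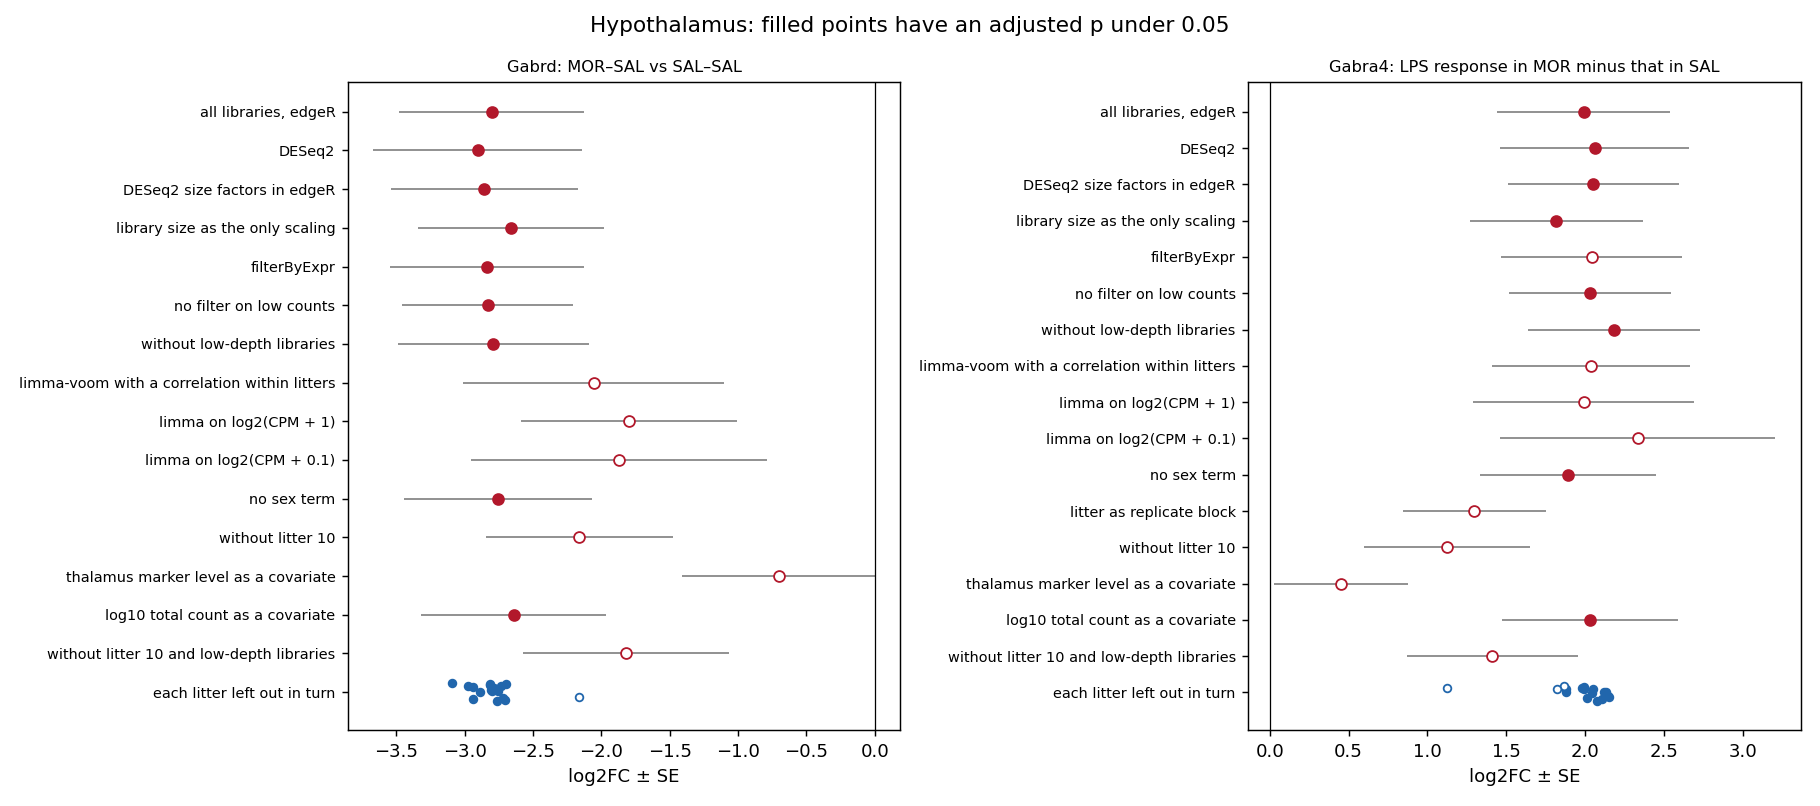
log2FC ± SE (horizontal axis) of hypothalamic Gabrd for MOR–SAL against SAL–SAL (left) and of the Gabra4 interaction (right) under each alternative analysis, with the row of litters left out in turn at the bottom; filled points have an adjusted p under 0.05. The points nearest to 0 are those with the thalamus list as a covariate, at −0.70 and 0.45.

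The remaining hypothalamic members did not pass in any contrast. Gabra3 came nearest: its lowest, median and highest levels were 3.80, 45.5 and 120 normalised CPM in SAL–SAL, 54.6, 70.2 and 113 in MOR–SAL, 0, 62.5 and 84.9 in SAL–LPS, and 20.7, 51.6 and 103 in MOR–LPS. All 14 MOR–SAL libraries lay above the SAL–SAL median and 12 of 14 MOR–LPS libraries below the MOR–SAL median, with overlapping ranges. The log2FC was 0.60 for MOR–SAL against SAL–SAL (SE 0.23, edgeR adjusted p = 0.145), −0.53 for MOR–LPS against MOR–SAL (adjusted p = 0.114) and −0.97 for the interaction (adjusted p = 0.0788). In the litter 10 libraries 10-1 and 10-3, where Gabra4 was highest and Gabrd high, Gabra3 was 10.2 and 26.0 and Gabra5 1.36 and 3.74.

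Gabra5 had hypothalamic medians of 20.6, 24.6, 22.1 and 33.7 normalised CPM over the 4 conditions, and MOR–LPS differed from MOR–SAL by 0.59 (SE 0.29, edgeR adjusted p = 0.228). Gabra2, Gabrb1 and Gabrb2 differed by at most 0.31 on the log2 scale in any of these contrasts. Over the 7 members the median log2FC was −0.06, 0.23, −0.18, 0.13 and 0.31 for the 5 contrasts, beside −0.06 to 0.07 over all genes tested.

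Whether the hypothalamus differed from the other regions was tested in the fit over all libraries, as the hypothalamic contrast minus the mean of the same contrast in the hippocampus, PFC and striatum, a comparison added after seeing the data. For MOR–SAL against SAL–SAL 2 of 7 members differed (1.78% of all genes): Gabrd by −2.79 (SE 0.54, edgeR adjusted p = 7.94e-04) and Gabra4 by −1.25 (SE 0.33, adjusted p = 0.0211). For SAL–LPS against SAL–SAL 1 of 7 differed (1.06% of genes), Gabra4 by −1.46 (adjusted p = 0.0126). For the interaction 2 of 7 differed (1.93% of genes), Gabrd by 3.35 (SE 0.74, adjusted p = 0.00305) and Gabra4 by 2.04 (SE 0.46, adjusted p = 0.00322). Without the hypothalamic libraries of litter 10 the Gabra4 differences were −0.25, −0.69 and 1.25 (adjusted p = 0.873, 0.537 and 0.155), whereas those of Gabrd for MOR–SAL and for the interaction were −2.07 and 3.20 (adjusted p = 0.0337 and 0.0100). This fit gives each gene 1 spread for all regions, whereas Gabrd varied more in the hypothalamus (28.2 ± 44.8) than in the striatum (96.2 ± 40.6). In the hypothalamic fit alone the Gabrd interaction had an edgeR adjusted p of 0.0508. Its MOR–SAL difference without litter 10 had 0.130 there. The thalamus list was not tried as a covariate in the fit over all libraries.

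In the hippocampus none of the 7 members passed in edgeR or DESeq2. The background was 0% of genes for MOR–SAL against SAL–SAL, 2.73% for MOR–LPS against SAL–LPS, 2.55% for SAL–LPS against SAL–SAL, 0.467% for MOR–LPS against MOR–SAL and 2.35% for the interaction, and members at an unadjusted p under 0.05 numbered 0, 0, 1, 1 and 0. The gene behind both was Gabra5, the extrasynaptic α subunit. Its lowest, median and highest levels were 7.91, 14.3 and 26.1 normalised CPM in SAL–SAL, 5.74, 14.7 and 27.1 in MOR–SAL, 3.04, 7.76 and 20.2 in SAL–LPS and 0.413, 7.25 and 15.3 in MOR–LPS. Medians were lower with LPS in both exposures, with 15 of 16 MOR–LPS libraries below the MOR–SAL median and 10 of 14 SAL–LPS libraries below that of SAL–SAL, but the ranges overlapped. The log2FC was −0.99 for MOR–LPS against MOR–SAL (SE 0.29, edgeR adjusted p = 0.0759) and −0.62 for SAL–LPS against SAL–SAL (SE 0.29, adjusted p = 0.232). Tissue markers moved with it: the hippocampal list had medians of 329, 356, 233 and 289 normalised CPM over SAL–SAL, MOR–SAL and the SAL and MOR animals given LPS, and the striatal spiny neuron list 702, 522, 1265 and 1034. Their part in the result was not tested.

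Hippocampal Gabra4 had means of 197 ± 52.0, 162 ± 46.1, 165 ± 23.8 and 173 ± 32.1 normalised CPM over the 4 conditions in the order above, and Gabrd 57.2 ± 22.4, 54.6 ± 37.8, 60.1 ± 37.4 and 47.0 ± 17.0. No group of either gene stood apart from the others.

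In the PFC none of the 7 members passed in edgeR or DESeq2 (background 0% of genes for MOR–SAL against SAL–SAL, 0.0046% for MOR–LPS against SAL–LPS, 0% for SAL–LPS against SAL–SAL, 0.0184% for MOR–LPS against MOR–SAL and 1.78% for the interaction). Gabra3 was the single member with an unadjusted p under 0.05, for SAL–LPS against SAL–SAL. It had 0, 42.7 and 90.2 normalised CPM (lowest, median and highest) in SAL–SAL and 8.56, 24.3 and 55.3 in SAL–LPS, with overlapping ranges, and the log2FC was −0.81 (SE 0.40, edgeR adjusted p = 0.382). Gabrd had PFC means of 113 ± 65.9, 106 ± 47.0, 113 ± 51.9 and 83.3 ± 44.9 over the 4 conditions.

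Striatal libraries held Gabra4 and Gabrd at their highest median levels, though Gabrd was not told apart from the PFC (edgeR adjusted p = 0.816). None of the 7 members passed in the striatum in edgeR or DESeq2 (background 0% of genes for MOR–SAL against SAL–SAL, 0% for MOR–LPS against SAL–LPS, 0.0128% for SAL–LPS against SAL–SAL, 1.39% for MOR–LPS against MOR–SAL and 0.00854% for the interaction). At an unadjusted p under 0.05 there were 2 members for MOR–LPS against SAL–LPS and 2 for the interaction, Gabra4 and Gabrb2 in both. Striatal Gabra4 had a lowest, median and highest level of 126, 271 and 467 normalised CPM in SAL–SAL, 195, 308 and 453 in MOR–SAL, 171, 356 and 600 in SAL–LPS and 39.2, 218 and 378 in MOR–LPS. Gabrb2 had medians of 301, 354, 412 and 325. For both genes 15 of 18 MOR–LPS libraries lay below the SAL–LPS median, with overlapping ranges.

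MOR–LPS against SAL–LPS gave a striatal log2FC of −0.50 for Gabra4 (SE 0.19, edgeR adjusted p = 0.239), −0.37 for Gabrb2 (SE 0.13, adjusted p = 0.161) and −0.52 for Gabrd (SE 0.26, adjusted p = 0.450). Gabrd had striatal medians of 86.3, 119, 126 and 74.5 normalised CPM, with 16 of 18 MOR–LPS libraries below the SAL–LPS median. The thalamus list had striatal medians of 4070, 5893, 6930 and 4897 over the 4 conditions, highest in SAL–LPS as for Gabra4 and Gabrd, and its part in these values was not tested. The interaction was −0.66 for Gabra4 (edgeR adjusted p = 0.303) and −0.44 for Gabrb2 (adjusted p = 0.310).

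**Figure D5:**
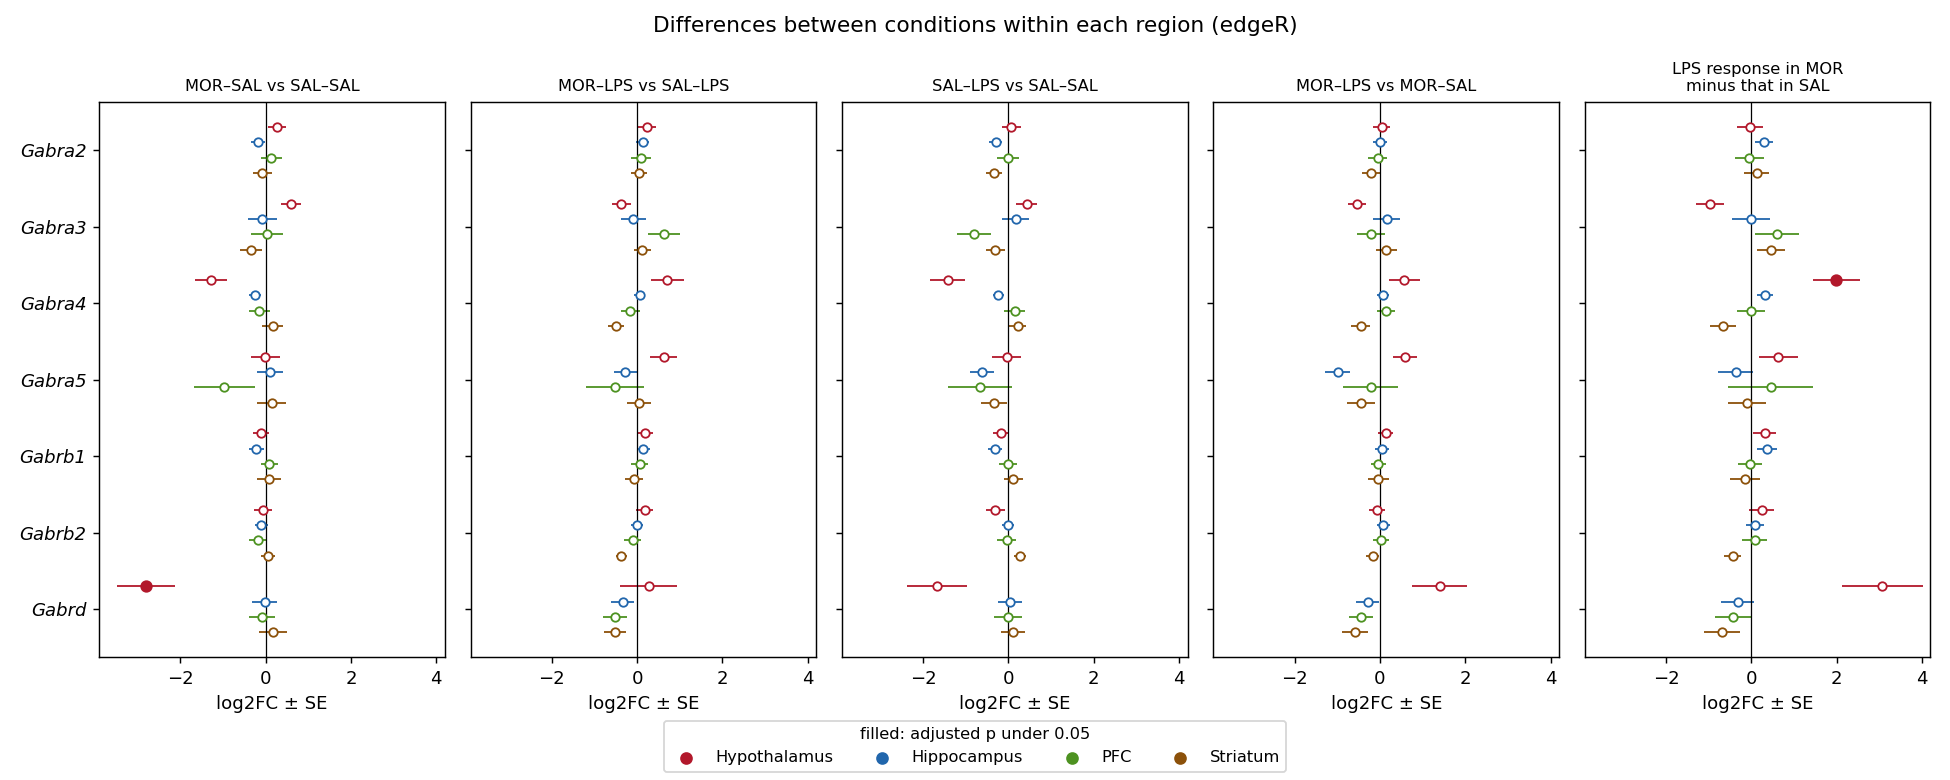
log2FC ± SE from edgeR (horizontal axis) of the 7 members for each of the 5 condition contrasts (panels), coloured by region; filled points have an adjusted p under 0.05. The 2 filled points are hypothalamic Gabrd for MOR–SAL against SAL–SAL (−2.80) and the hypothalamic Gabra4 interaction (1.99), and beyond 1 in either direction there are further points of hypothalamic Gabrd and Gabra4 alone.

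Males and females were compared in the same fits. None of the 7 members passed in the hypothalamus (3.45% of genes), hippocampus (2.51%), PFC (0.709%) or striatum (0.841%), by edgeR or DESeq2. The members with an unadjusted p under 0.05 were hypothalamic Gabra3, at 0.41 for males over females (p = 0.0140, edgeR adjusted p = 0.157), and Gabra2 in the PFC, at −0.37 (p = 0.0354, adjusted p = 0.336).

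Other genes of GABAergic transmission were read from a list of 37, of which 35 were found: further receptor subunits, GABA-B receptors, GABA synthesis, transport, chloride transporters, and assembly and anchoring proteins. In hypothalamic MOR–LPS against MOR–SAL, where 6.27% of all genes passed, 2 of 34 tested fell and 1 rose: Gabrg3, the γ3 subunit, from 106 ± 31.8 to 52.3 ± 14.9 (log2FC −1.01, edgeR adjusted p = 0.00297), Gad2, which makes GABA from glutamate, from 193 ± 61.6 to 109 ± 45.8 (−0.73, adjusted p = 0.0313), and Plcl1, a protein of receptor trafficking, from 18.9 ± 4.32 to 38.4 ± 23.9 (0.99, adjusted p = 0.0221). The interaction, with 3.8% of all genes called, passed for 4 of 34: Gabbr2, a GABA-B subunit (0.91, adjusted p = 0.0353), Gabrg3 (−1.16, adjusted p = 0.0248), Gad2 (−1.08, adjusted p = 0.0440) and Gabra6, which rests on 0, 12, 91 and 17 counts in the 4 conditions. For MOR–LPS against SAL–LPS and SAL–LPS against SAL–SAL 0 of 34 passed by edgeR, with 6 and 5 at an unadjusted p under 0.05, and DESeq2 called 0 and 2 (Gabbr1 and Gabbr2). Without litter 10 the calls of all 4 interactions were lost, whereas MOR–LPS against MOR–SAL holds no library of that litter. With the thalamus list as a covariate, Gabrg3 alone of these 4 kept its interaction call, while Nlgn2, Plcl1 and Slc6a11 passed anew. DESeq2 called the interaction for Gabbr1, Gabbr2 and Gabrg3. For MOR–LPS against MOR–SAL, Gabrg3, Gad2 and Plcl1 passed also with that covariate. There the hypothalamic list went from a median of 90.7 (4.93 to 178) to 36.05 (0.5998 to 246) and the astrocyte list from 20.0 (12.4 to 37.0) to 126 (6.596 to 554). Medians of the microglia list (9.46 to 22.4), the oligodendrocyte list (244 to 429), the endothelium and choroid plexus list (4.61 to 10.5) and the list of cortical and hippocampal excitatory neurons (62.6 to 105) were also higher in MOR–LPS, and the part of all these markers in the result was not tested.

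In the hippocampus and PFC 0 of 33 and 0 of 35 passed in any of the 5 condition contrasts by edgeR or DESeq2, with 2 to 6 and 1 to 5 at an unadjusted p under 0.05 in edgeR. In the striatum 2 of 35 rose in MOR–LPS against MOR–SAL (1.39% of all genes passed), Gabrr2, a ρ subunit (3.04, edgeR adjusted p = 0.0198) and the GABA transporter gene Slc6a11 (1.98, adjusted p = 0.0378), and 0 of 35 passed by edgeR in the other 4 contrasts, with 3 to 9 at an unadjusted p under 0.05, where DESeq2 called Slc6a11 in 2. Slc6a11 is best known from astrocytes, and from striatal MOR–SAL to MOR–LPS the median of the astrocyte list went from 26.1 to 50.8 normalised CPM, that of the microglia list from 8.81 to 16.7 and that of the oligodendrocyte list from 347 to 515; their part in the result was not tested. Between sexes, hypothalamic Slc12a2, a chloride importer (−0.57, adjusted p = 0.0457), hippocampal Gabre, the ε subunit, at few counts and not by DESeq2 (−3.80, adjusted p = 0.0125) and PFC Plcl1 (−0.83, adjusted p = 0.0299) were lower in males. Between regions, Gabrg3 was lower in the hypothalamus than in the hippocampus, PFC and striatum (log2FC −2.84, −4.25 and −4.37).

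The members did not move as 1 block from library to library. Over the 21 pairs of members, correlations within conditions had a hypothalamic median of −0.02 (lowest −0.54, highest 0.67), a hippocampal one of 0.12 (−0.65, 0.69), a PFC one of 0.19 (−0.69, 0.62) and a striatal one of 0.26 (−0.62, 0.76). In the hypothalamus the pairs Gabra2 and Gabrb1 (0.67) and Gabra4 and Gabrd (0.66) were among the highest, and Gabra3 and Gabra4 had −0.54. The genes most like each member were ranked by the mean over the 4 regions of the within-condition correlation across 200 libraries, among 9843 genes. For Gabrd they were Scn4b, a sodium channel subunit (0.69), Cyp46a1, a cholesterol hydroxylase (0.64), and Syndig1l (0.62), and for Gabra4 the ephrin receptor gene Epha4 (0.65), Spock3 (0.60) and the bicarbonate transporter gene Slc4a4 (0.58). Some of these means hid a spread between regions. Syndig1l had 0.22 with Gabrd in the hypothalamus and 0.83 in the striatum. Epha4 had 0.31 with Gabra4 in the hippocampus and 0.85 in the striatum. Gabra2 was nearest to Nkain3 (0.70), Gabra3 to Dner (0.74), Gabrb1 to Gm26871 (0.78), Gabrb2 to the bicarbonate transporter gene Slc4a10 (0.76), and Gabra5 to Nebl (0.52), the weakest of these likenesses. The points share libraries, depth and litters, so these are descriptions.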

How the data were processed

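NeuN+ nuclear RNA was sequenced from Smart-seq3-type libraries. Per the labels, the authors used Trim Galore 0.6.7, STAR 2.7.10a with mm10 and HTSeq 0.12.4, and the deposited tables hold raw read counts per gene and CPM values per region. The deposited CPM were checked against the counts. Members and gene lists were chosen with earlier results of these data known. All 7 members are named, as are the called genes of the other GABAergic list (at most 4 in each direction by adjusted p) and the genes of highest mean within-region correlation (at least 5 normalised CPM in each region, log2(normalised CPM + 1), without low-depth libraries).

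Genes with a total count above 10 were tested per region with edgeR 4.0.16 (TMM scaling, quasi-likelihood test, condition and sex as terms, R 4.3.3), and regions in 1 fit of genes above 10 in each region. Adjusted p-values (Benjamini-Hochberg over all genes) under 0.05 were called. SE is the log2FC over the square root of F. Normalised CPM use the TMM factors of the joint fit. Animals of a litter entered as separate samples, as in the study's methods, and so did regions of an animal in the joint fit, so p-values measure the spread between libraries. DESeq2 1.42.0, limma 3.58.1 with log2(CPM + 1) and log2(CPM + 0.1), other scalings and filters, left-out litters and litter or animal blocks were alternatives. The within-litter correlation estimated by limma-voom was between −0.0489 (hypothalamus) and 0.0288 (striatum), and 0.0148 within animals across regions. Scripts were tested on simulated data. Gene positions are from GENCODE M21. A few genes of the lists are not reported here.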

Additional observations from a re-analysis of the deposited data

Results flagged for a closer look

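Of 21 combinations of member and group of up to 10 libraries that were searched for a library far from the rest, 2 had one, where chance flags about 1 in 20. In the PFC of SAL–SAL mice, library 10-1 had 800.1 normalised CPM of Gabrb1, against 508 in the next highest of 10 libraries. In the same group, library 5-1 had 268 normalised CPM of Gabrd, against 162 in the next highest, and Gabra3 was 0 there at a total of 9076969 counts, which allows up to 0.331 CPM. Mitochondrial genes took 1.76% of its counts, the highest share of the 48 PFC libraries.

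The LPS response of hypothalamic Gabra4 differed between MOR and SAL animals by 1.99 on the log2 scale. Effects in the hypothalamus also differed from the mean effect in the hippocampus, PFC and striatum by a test of the difference: for MOR–SAL against SAL–SAL by −2.79 for Gabrd and −1.25 for Gabra4, for SAL–LPS against SAL–SAL by −1.46 for Gabra4, and for the interaction by 3.35 for Gabrd and 2.04 for Gabra4. Litter 10 and the thalamus list moved with these hypothalamic values.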

How the results depend on the processing

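In the hypothalamus, the count of members called for MOR–SAL against SAL–SAL was 2 in place of 1 with no filter on low counts, without low-depth libraries and without sex as a term, and 0 with limma-voom and a correlation within litters, with limma on log2(CPM + 1) or log2(CPM + 0.1), without litter 10, with the thalamus list as a covariate, and without litter 10 and low-depth libraries; leaving out each litter gave 0 to 2. The count for the interaction was 2 in place of 1 with size factors and with no filter, and 0 with filterByExpr, limma-voom with that correlation, both limma fits on CPM, litter as a replicate block, without litter 10, with the thalamus list, and without litter 10 and low-depth libraries; leaving out each litter gave 0 to 3. For MOR–LPS against MOR–SAL it was 1 without litter 10 and low-depth libraries (Gabra5, 0.60, edgeR adjusted p = 0.0468). The thalamus, log10 total count and combined exclusion alternatives and the differences between hypothalamus and other regions were chosen after seeing the data. With the thalamus list as a covariate, Gabra4 turned to 0.12 for MOR–SAL against SAL–SAL and, for SAL–LPS against SAL–SAL, to 0.029, and Gabrd to 0.49. The litter block gave 0 members called in all LPS contrasts and so changed no other call. Over 14 alternative settings the Gabrd difference for MOR–SAL against SAL–SAL kept its sign (−2.90 to −0.70) and kept its call in 8 (edgeR, DESeq2 or limma adjusted p from 0.00774 to 0.782). Over 17 litters left out in turn it ranged from −3.09 to −2.16 and kept its call in 16 (edgeR adjusted p from 0.00521 to 0.130). The fit without litter 10 counts in both. DESeq2 gave −2.90 for this Gabrd difference (adjusted p = 0.0150) and 2.06 for the Gabra4 interaction (adjusted p = 0.0372).

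Between regions, using SAL–SAL libraries alone gave 3, 4, 1, 0 and 2 members called for the hypothalamus against hippocampus and PFC, the hippocampus against PFC and striatum, and the PFC against striatum; Gabrd turned to 0.19 (hypothalamus against hippocampus) and Gabra4 to 0.19 (hypothalamus against PFC). Gabra2 turned to 0.010 for the hippocampus against striatum with limma on log2(CPM + 1). With the animal as a replicate block, which pairs regions, limma-voom called 7, 7, 6, 6, 5 and 6 members. Without the hypothalamic libraries of litter 10, 1, 0 and 1 members differed between hypothalamus and the other regions for MOR–SAL, SAL–LPS and the interaction. The cause of these changes was not tested.

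With library size as the only scaling, the median log2FC of all genes moved by over 0.1: from 0.07 to 0.19 for hypothalamic MOR–SAL against SAL–SAL, from 0.12 to 0.38 for the striatal interaction, and to 0.35, 0.43 and 0.44 for the hypothalamus against hippocampus, PFC and striatum; no member turned direction with it among the values compared. Over all genes, the hypothalamic interaction was called for 1098 genes by edgeR, 383 by DESeq2 and 37 with the litter block, and MOR–LPS against SAL–LPS for 298 by edgeR and 70 by DESeq2; the striatal interaction was called for 2 genes by edgeR, 130 by DESeq2 and 236 with library size as the only scaling. Low counts limit Gabra5 (a median of 46 counts in the PFC, 0 in 5 libraries) and hypothalamic Gabrd (a median of 61, 0 in 4).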
